A study of Mus musculus with 83 samples.

Results

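Integrins are the cell's receptors for extracellular matrix, and laminins are the matrix proteins that organise basement membranes. The genes described here are those whose symbols name an integrin alpha or beta subunit or a laminin alpha, beta or gamma chain; the integrin-binding proteins Itgb1bp1, Itgb1bp2 and Itgb3bp and the integrin-like genes Itgbl1 and Itgb2l were left out. The rule took 37 genes, 26 integrin and 11 laminin genes, of which 24 (16 integrin and 8 laminin) are among the 11144 genes of the culture tables and 36 among the 22463 genes of the tissue table.

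RNA was sequenced from immortalized brown preadipocytes at 4 times and from interscapular brown adipose tissue. The cells came from the brown fat of newborn C57BL/6J mice, carried Pparg-flox/flox alleles in every library, and had been immortalized with SV40 large T antigen from a retrovirus. They were proliferating at day -3 and confluent at day 0, when insulin, T3, IBMX, dexamethasone and indomethacin were added; from day 2, as immature adipocytes, they received insulin and T3, and at day 7 they were mature adipocytes. The labels do not say whether the line is 1 clone. The tissue came from C57BL/6J mice at 16 weeks. Each time and the tissue had 1 library, so no value has a replicate error and no difference was tested. The adipocyte markers checked the labels: 6 genes summed to 56.9 and 118 FPKM before induction, to 5359 and 5545 FPKM on days 2 and 7, and to 7387 RPKM in the tissue. In contrast, 4 brown fat markers reached 16.3 FPKM at day 7, while 6 such genes summed to 3210 RPKM in the tissue.

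An integrin is a pair of 1 alpha and 1 beta subunit spanning the membrane. The alpha subunit largely sets the ligand: alpha5, alpha8, alphaV and alphaIIb read the RGD motif of fibronectin and related proteins, alpha3, alpha6 and alpha7 bind laminin, and alpha1, alpha10 and alpha11 bind collagen. A laminin is a cross-shaped trimer of 1 alpha, 1 beta and 1 gamma chain, numbered by its chains, so that laminin-411 holds alpha4, beta1 and gamma1. Fat cells are each surrounded by a basement membrane, whereas preadipocytes lie in a fibronectin-rich matrix. Levels below are FPKM, fragment numbers scaled by transcript length and library size, which can be compared between genes. Where 4 values follow each other they stand for days -3, 0, 2 and 7, and differences are of log2(FPKM + 1).

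A gene counted as higher or lower at a step when this difference was at least 1, that is 2-fold on that scale, and its larger value was at least 1 FPKM. At the step to confluence (day -3 to day 0) the count was 3 of 22 members higher and 3 lower, where 11.3% of all genes compared were higher and 5.43% lower. After induction (day 0 to day 2) it was 4 of 21 higher and 5 lower, beside 6.18% and 10.7% of all genes. In maturation (day 2 to day 7) it was 7 of 22 higher and 3 lower, beside 9.62% and 5.14%. From day -3 to day 7, 6 of 23 were higher and 6 lower, beside 20.3% and 14.7% (35% in either direction). In all, 15 of the 24 passed the rule at a consecutive step, another 3 (Itga1, Itgb1 and Itgb5) only between day -3 and day 7, and 6 at none. At these 4 comparisons 6, 3, 5 and 8 members entered through 1 library only, their other value being under 1 FPKM. When each library was rescaled to a common total, the first step held 9 higher and 2 lower members and the second 4 and 8. The shares of all genes under that scaling were 19.4% higher and 4.19% lower at the first step and 7.66% and 13.1% at the second. That rescaling moved the median of all genes at the first step from 0.06 to 0.28.

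The day of the highest value is given for every member, including the 6 that never passed the rule and those that entered the tables through that day. Of the 16 integrin genes, 5 had their highest value in proliferating cells, 6 in confluent cells, 0 in immature and 5 in mature adipocytes. Of the 8 laminin genes, 0 peaked at day -3 or day 0, 3 at day 2 and 5 at day 7. Of all 11144 genes, 28.4%, 21.6%, 17.2% and 32.7% peaked on days -3, 0, 2 and 7, and no difference between the families was tested. From day -3 to day 7, 2 of 15 integrin genes were higher and 6 lower, and of 8 laminin genes 4 were higher and 0 lower. Beside these counts, 20.3% of all genes compared were higher and 14.7% lower. The median difference from day -3 to day 7 was 0.21 for 15 integrin genes and 1.02 for 8 laminin genes, beside 0.07 for all genes.

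The 3 most abundant integrin genes of proliferating and confluent cells and of day 2, Itgb1, Itga5 and Itgav, encode the fibronectin receptor and a relative, and each was lower at each later time. At day 7 Itga6 stood above Itga5 and Itgav. Itga5, which encodes the alpha subunit of the classical fibronectin receptor, was at 310, 102, 52.8 and 24.3 FPKM. It differed by -1.59, -0.94 and -1.09 on the log2 scale over the consecutive steps and by -3.62 from end to end. Itgav, whose alphaV subunit pairs with several beta subunits, was at 143 FPKM, then 69.8, 30.7 and 24.5. Its first difference was -1.03, which became -0.82 with the common total, inside the 2-fold rule. The second was -1.16. Itgb1, the beta subunit shared by most of these receptors, was at 482 FPKM, then 249, 199 and 141. No single step of Itgb1 reached 2-fold, but day 7 lay 1.77 below day -3. It stayed among the most abundant transcripts, at percentile 99.5 of the day -3 library and 97.1 of the day 7 library.

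Since these 3 genes were lower together, the 250 bases before their annotated starts are shown, from RefSeq on build GRCm38.p6; the tables themselves hold no coordinates and were made with mm9. Itga5 lies at chr15:103366792-103367041 on the minus strand, Itgav at chr2:83724147-83724396 and Itgb1 at chr8:128685404-128685653, both on the plus strand. Capitals mark the GC box GGGCGG, which Sp1-type factors bind, the CCAAT box CCAAT and the TEAD motif GGAATG, each searched on both strands.
Itga5: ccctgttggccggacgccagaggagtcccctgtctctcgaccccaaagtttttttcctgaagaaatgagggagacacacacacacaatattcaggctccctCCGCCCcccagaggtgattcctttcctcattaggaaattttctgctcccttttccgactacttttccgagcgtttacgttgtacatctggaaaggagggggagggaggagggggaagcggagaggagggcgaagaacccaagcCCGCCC
Itgav: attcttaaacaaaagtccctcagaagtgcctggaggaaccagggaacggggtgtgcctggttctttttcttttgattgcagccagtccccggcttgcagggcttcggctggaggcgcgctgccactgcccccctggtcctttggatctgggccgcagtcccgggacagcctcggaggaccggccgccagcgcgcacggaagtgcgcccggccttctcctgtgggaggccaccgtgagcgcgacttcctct
Itgb1: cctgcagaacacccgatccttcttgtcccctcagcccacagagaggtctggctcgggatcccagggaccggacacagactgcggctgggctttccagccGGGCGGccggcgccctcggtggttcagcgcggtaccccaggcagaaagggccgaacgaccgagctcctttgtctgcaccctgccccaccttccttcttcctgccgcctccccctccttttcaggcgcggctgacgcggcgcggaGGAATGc
The Itga5 window held 2 GC boxes, the Itgb1 window held 1, and the Itgav window held none of these motifs. Itgb1 had a TEAD motif from base 7 to base 2 before the start, a motif found in 12.6% of the 32851 RefSeq promoter windows of the same length. GC boxes were in 32.7% of them and CCAAT boxes in 33.8%. Over the 17 members with a window in the table, 7 had a GC box, 3 a TEAD motif and 2 a CCAAT box. A member counted once if any of its windows held the motif, whereas the shares of all windows count each window. The AP-1 motif TGANTCA (6.75% of all windows), the C/EBP motif TTGCNNAA (9.56%) and the EBF motif CCCNNGGG (11.8%) matched 0 of 17, and the CArG box of SRF matched 1 (1.47% of all windows). A match of letters is a description, not a binding site.

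**Figure D1:**
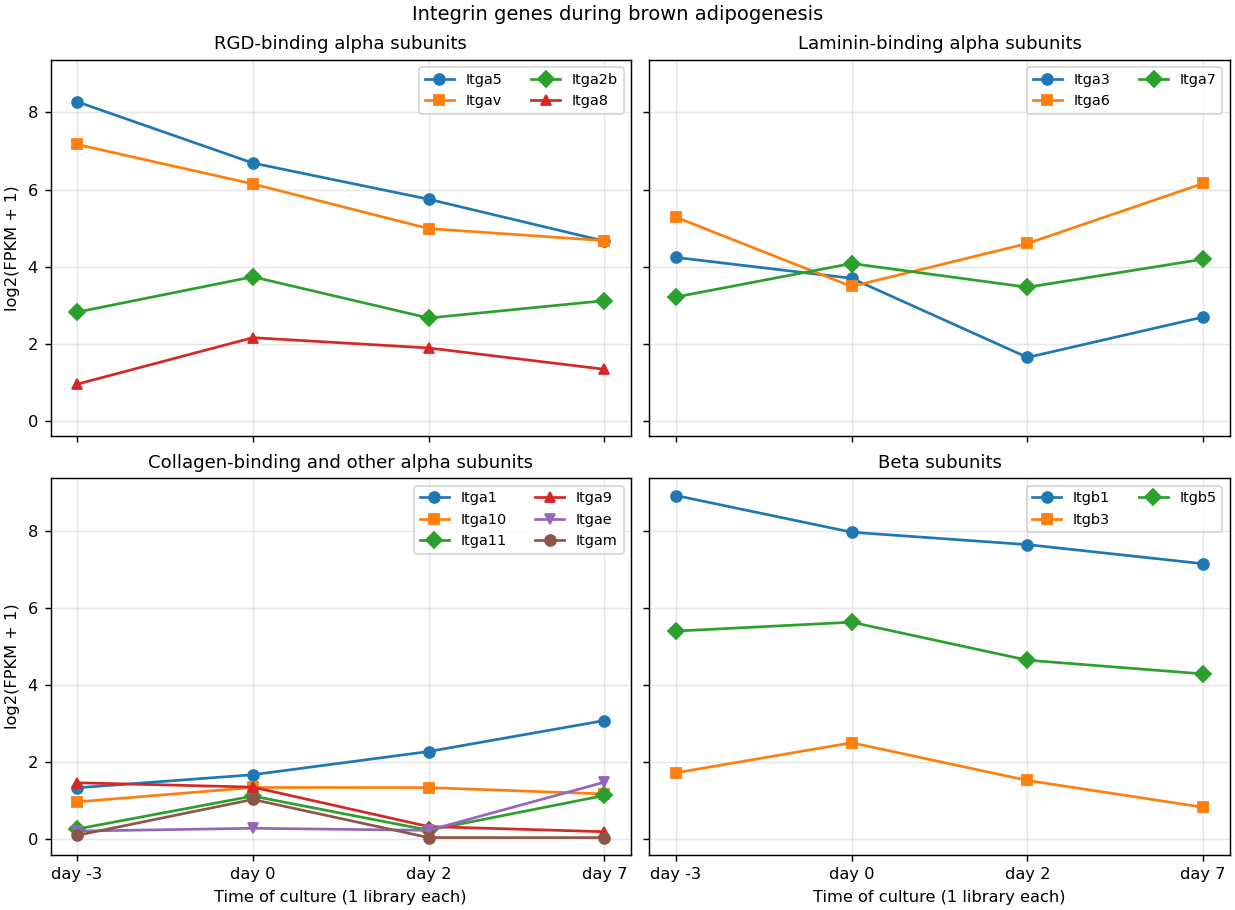
Levels of the 16 integrin genes as log2(FPKM + 1) at days -3, 0, 2 and 7, 1 library per point, in panels by ligand class and for the beta subunits. Itga5, Itgav and Itgb1 lie lower at each later day, Itga6 is lowest at day 0 (10.2 FPKM) and highest at day 7 (70.4 FPKM).

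The other RGD-binding subunits were at lower levels. Itga8, a receptor subunit known from kidney development and smooth muscle, was at 0.929, 3.45, 2.70 and 1.52 FPKM. Only its first step passed the rule, through day 0. Itga2b, the platelet alphaIIb subunit, was at 6.05, 12.3, 5.34 and 7.67 FPKM, lower at day 2 than at day 0. Of 4 platelet markers only Gp1ba has culture values, between 0.466 and 2.57 FPKM; the part of such cells in the Itga2b level was not tested. Itgb3, the partner of alphaIIb and alphaV, had its lowest value, 0.770 FPKM, on day 7 and its highest, 4.65, on day 0, and passed the rule at no step. Itgb5, which pairs with alphaV alone, was at 41.1, 48.4, 24.0 and 18.5 FPKM, a difference of -1.11 from end to end. It was thus far more abundant than Itgb3 at every time.

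Among the laminin-binding subunits the 3 genes took different courses. Itga6 was at 38.0, 10.2, 23.3 and 70.4 FPKM. It was lower at confluence (-1.80) and then higher at each step (1.12 and 1.56), so that day 7 was 0.87 above day -3, under the 2-fold rule. Itga3 ran the other way over the second step: it was at 17.9, 11.97, 2.12 and 5.46 FPKM, with a difference of -2.06 at day 2 and 1.05 at day 7. Itga7, best known as the laminin receptor subunit of muscle, lay between 8.26 and 17.3 FPKM and never passed the rule. At day 7 Itga6 therefore stood above Itga7, and Itga7 above Itga3, whereas at day 0 Itga7 was the highest of the 3 at 15.9 FPKM.

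Of the collagen-binding subunits Itga1 was higher at each later time. It was at 1.51, 2.18, 3.83 and 7.43 FPKM, a difference of 1.75 from end to end, with no single step past 2-fold. The annotated gene span holds another protein-coding gene, Pelo, which stayed between 9.95 and 13.3 FPKM. Itga10 lay between 0.950 and 1.53 FPKM and Itga11 between 0.171 and 1.19 FPKM, neither past the rule.

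The remaining subunits belong mainly to leukocyte-type or tenascin receptors and were near the lower end of the tables. Itga9, a receptor subunit for tenascin-C and VCAM-1, was at 1.75, 1.54, 0.250 and 0.140 FPKM. Itgae, the alphaE subunit of intraepithelial lymphocytes, was at 0.152, 0.213 and 0.168 FPKM up to day 2 and at 1.78 at day 7. Haspin, a mitotic kinase gene inside the Itgae span, lay between 5.58 and 10.2 FPKM, and the labels do not say whether reads were assigned by strand. Itgam, the macrophage alphaM subunit, had 1.04 FPKM on day 0 and at most 0.0672 at the other times. Of the leukocyte markers, Coro1a was at 0.347, 1.83, 0.203 and 0.468 FPKM, also highest at day 0, while Cd68 stayed between 3.32 and 4.20; their part in the Itgam value was not tested.

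The laminin alpha chains took different courses. Lama4, the alpha chain of vessel and fat cell basement membranes, was at 0.298, 1.83, 15.8 and 77.8 FPKM. Its log2 differences were 1.12, 2.57 and 2.23 over the consecutive steps and 5.92 from end to end. It stood at percentile 5.5 of the day -3 library and percentile 93.1 of the day 7 library. Lama5, an alpha chain of many epithelial and vascular basement membranes, was at 14.1, 26.0, 9.64 and 32.9 FPKM. It was lower at day 2 (-1.34) and higher at day 7 (1.67). Lama2, the chain of muscle and nerve laminin, was at 2.43, 6.76, 9.11 and 2.84 FPKM, higher at day 0 (1.18) and lower again at day 7 (-1.40). Each alpha chain thus had its own course, and only Lama4 was higher at every step. Of 6 pericyte and smooth muscle markers 4 have culture values, and their sum was 114, 95.3, 57.9 and 88.8 FPKM. At day 7, 3 of these 4 (Cspg4, Mcam and Des) were higher than at day 2. The other, Pdgfrb, went down from 46.0 FPKM at day 2 to 25.3 at day 7, inside the 2-fold rule. Of 8 laminin genes 4 were higher and 2 lower at that step, where 9.62% of all genes were higher and 5.14% lower. The part of pericytes and smooth muscle cells in the laminin values was not tested.

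Lamb1 and Lamc1, the beta1 and gamma1 chains common to most laminins, were both highest at day 2. Lamb1 was at 110, 92.7, 286 and 119 FPKM, with differences of 1.62 at day 2 and -1.26 at day 7. Lamc1 was at 61.6, 67.7, 226 and 147 FPKM, with 1.73 at day 2 and -0.62 at day 7. From end to end Lamc1 was 1.24 higher and Lamb1 0.11 higher. Lamb2, the alternative beta chain, stayed between 21.8 and 37.0 FPKM and passed the rule nowhere.

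The Lamb1 window, the 250 bases before the start at chr12:31265043-31265292 on the plus strand, is shown because this gene ran against the integrin genes above at day 2; capitals are as above.
Lamb1: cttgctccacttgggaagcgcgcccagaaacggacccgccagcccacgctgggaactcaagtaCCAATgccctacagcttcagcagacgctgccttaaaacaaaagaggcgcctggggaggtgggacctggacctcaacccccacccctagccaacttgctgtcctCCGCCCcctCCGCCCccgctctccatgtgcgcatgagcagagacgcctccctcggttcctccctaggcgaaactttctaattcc
It held 2 GC boxes and a CCAAT box from base 187 to base 183 before the start.

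Lamb3, a beta chain of epithelial laminin, was at 1 FPKM or more on day 7 only. It was at 0.0595 FPKM in proliferating cells, listed at 0 at confluence, and had 0.0850 FPKM on day 2 and 8.43 on day 7. G0s2, a gene next to Lamb3 on the chromosome, was at 0.166, 1.30, 92.0 and 358 FPKM; the part of neighbouring transcription in the Lamb3 value was not tested. Lama3, an epithelial alpha chain, has no culture value.

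**Figure D2:**
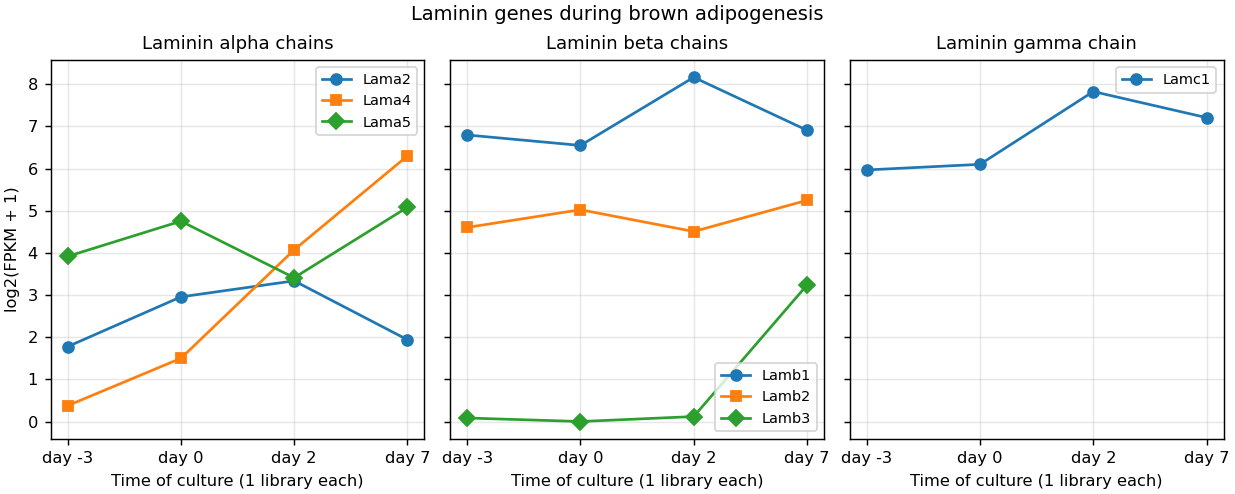
Levels of 7 laminin genes with culture values as log2(FPKM + 1) at days -3, 0, 2 and 7, 1 library per point, in panels by alpha, beta and gamma chain. Lama4 goes from 0.298 to 77.8 FPKM, Lamb1 and Lamc1 are highest at day 2, and Lamb3 is near 0 until day 7.

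Because a receptor or trimer needs all of its chains, the scarcest chain of each was read off in every library. For the 13 of 24 textbook integrin pairs with values for both subunits in culture, the lower subunit was at least 1 FPKM for 10, 13, 11 and 10 pairs in turn. Itgb1 was never the scarcer subunit of its pairs: even at day -3 Itga5, at 310 FPKM, was below it. Of the 6 laminin trimers with values, 4 had every chain at 1 FPKM or more at day -3 and 6 at the later times. For laminin-411 the scarcest chain was Lama4 at each time, so its lowest chain went from 0.298 to 77.8 FPKM. For laminin-421 it was Lama4 up to day 2 and Lamb2, at 37.0 FPKM, at day 7. For laminin-511 it was Lama5, at 9.64 FPKM at day 2 and 32.9 at day 7. These are RNA levels and do not show which proteins were assembled.

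The make-up of the alpha subunits and chains differed between the libraries. RGD-binding subunits made up 87.0%, 80.4%, 68.9% and 35.6% of the summed FPKM of the 13 integrin alpha genes. Laminin-binding subunits made up 12.1%, 16.3%, 26.6% and 57.2%. Collagen-binding subunits went from 0.503% to 6.05%. Itga6 alone held 7.18% at day -3 and 43.2% at day 7, while Itga5 held 58.6% and 14.9%. The sum behind these shares was itself unequal, at 529, 233, 133 and 163 FPKM. Among the 3 laminin alpha chains with values, Lama5 held 83.8%, 75.1%, 27.9% and 29.0% at the 4 times, and Lama4 held 1.77%, 5.29%, 45.8% and 68.5%. Their sum was 16.8 FPKM at day -3 and 114 at day 7.

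**Figure D3:**
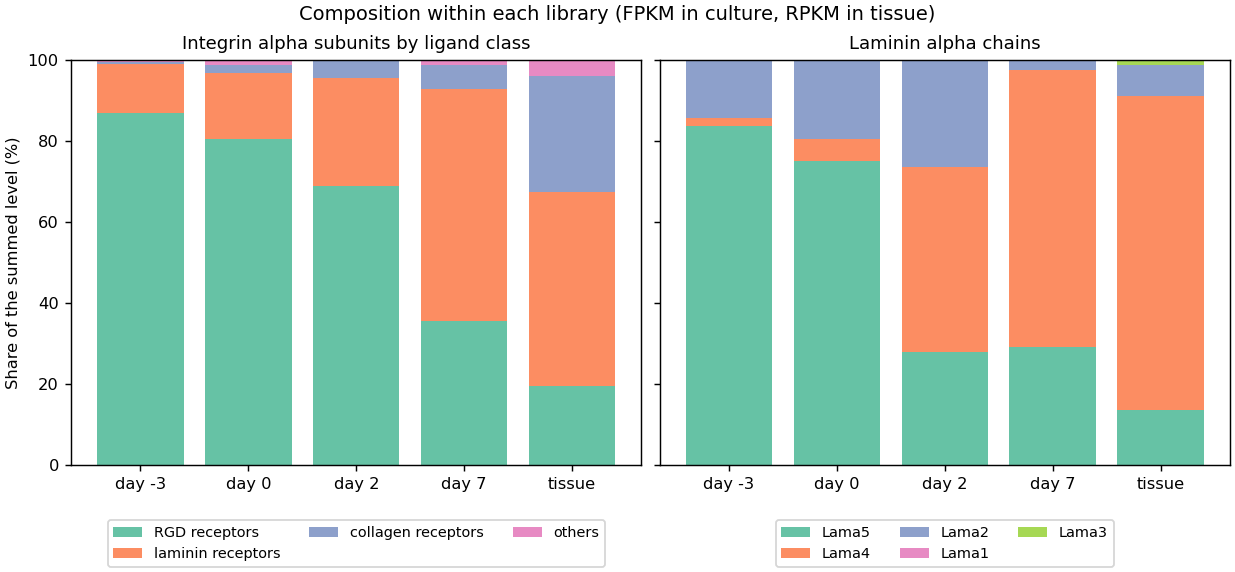
Stacked bars of the share of each ligand class in the summed level of 13 integrin alpha genes (left, 12 in the tissue) and of each chain in the summed laminin alpha level (right), for the 4 culture libraries (FPKM) and the tissue (RPKM). The laminin receptor share is 12.1% at day -3 and 57.2% at day 7, and the Lama4 share 1.77% and 68.5%.

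The genes that work with integrins were read as lists. Of the integrin adhesion adaptors, which tie the receptors to actin, 8 of 27 were lower and 1 higher at day 0, 8 of 26 lower and 0 higher at day 2, and 0 of 28 lower and 2 higher at day 7. Of all genes 5.43% were lower and 11.3% higher at day 0, 10.7% lower and 6.18% higher at day 2, and 5.14% lower and 9.62% higher at day 7. Actn1, the actin crosslinker alpha-actinin-1, was at 510, 158, 67.3 and 37.7 FPKM. Zyx, the focal adhesion protein zyxin, was at 443, 201, 38.6 and 36.6 FPKM, Parvb, which encodes beta-parvin, at 53.5, 20.2, 4.72 and 4.05, and Tgfb1i1, a paxillin relative, at 92.5, 45.9, 6.35 and 10.1. Adaptors that were never past the rule at a consecutive step include Ilk, a scaffold kinase of integrin tails, at 176, 127, 82.6 and 91.4 FPKM, and Tln1, the integrin activator talin, at 180, 94.9, 55.2 and 49.6. Ilk and Tln1 were chosen after their values were seen.

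Integrin ligands other than laminin were mostly lower at day 2 than at day 0. At day 2, 11 of 17 were lower and 0 higher, and from day -3 to day 7, 11 of 16 were lower and 0 higher, where 10.7% and 14.7% of all genes were lower. Before that, at confluence, 5 of 17 were higher and 4 lower, beside 11.3% and 5.43% of all genes. Ctgf, a matricellular protein, was at 1055, 32.9, 9.21 and 28.4 FPKM, and Thbs1, thrombospondin-1, at 639, 103, 49.1 and 82.0. Spp1, the RGD protein osteopontin, was at 222, 264, 50.0 and 19.5 FPKM and Tnc, tenascin-C, at 245, 118, 19.7 and 11.9. Fn1, fibronectin and the ligand of Itga5, was at 792, 791, 245 and 299 FPKM; it was chosen after its values were seen. So Fn1 first differed at day 2, a step later than Itga5.

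Of the basement membrane partners, 5 of 16 were higher and 1 lower at day 2 (all genes 6.18% and 10.7%), and 1 of 15 higher and 5 lower at day 7 (all genes 9.62% and 5.14%). Col15a1, a collagen that links basement membrane to the matrix around it, was at 14.1, 17.9, 239 and 121 FPKM. The type IV collagen genes Col4a1 and Col4a2, which encode chains of the collagen network of basement membranes, were highest at day 2 like Lamb1 and Lamc1. Col4a1 was at 260, 154, 673 and 287 FPKM and Col4a2 at 152, 103, 402 and 156. Both were chosen after their values were seen. Others were highest at day -3: Npnt, the alpha8 ligand nephronectin, was at 74.1, 7.46, 3.31 and 8.96 FPKM, Ntn4 at 22.6, 4.87, 1.67 and 1.26, and Smoc2 at 27.4, 2.03, 4.79 and 0.399.

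Of the laminin receptors that are not integrins, 2 of 11 were higher and 1 lower at day 0, 0 of 10 higher and 2 lower at day 2, and 0 of 10 higher and 1 lower at day 7. The shares of all genes past the rule in either direction at these steps were 16.8%, 16.9% and 14.8%. From day -3 to day 7, 2 of 11 were higher and 3 lower, where 35% of all genes passed in either direction. Dag1, which encodes dystroglycan, was at 37.3, 66.7, 82.9 and 106 FPKM. Sgcb, a sarcoglycan that stands beside it, was at 4.37, 10.9, 13.1 and 7.72. Of the syndecans, Sdc3 was at 61.6, 37.5, 2.94 and 6.16 FPKM and Sdc2 at 84.9, 112, 57.6 and 34.3. Dystroglycan RNA thus ended higher and these 2 syndecans lower than at the start. Among 12 membrane proteins associated with integrins, 3 were higher and 2 lower at day 0, 0 and 3 at day 2, and 4 and 0 at day 7. Of all genes 11.3% were higher and 5.43% lower at day 0, 6.18% and 10.7% at day 2, and 9.62% and 5.14% at day 7. Plaur, the urokinase receptor, was at 43.3, 7.53, 1.20 and 1.06 FPKM and Mmp14, a membrane protease, at 148, 301, 83.9 and 47.7. Cd82, a tetraspanin, was at 4.13, 17.9, 8.54 and 31.3 FPKM, and Bsg, basigin, at 426, 386, 411.3 and 2302.

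**Figure D4:**
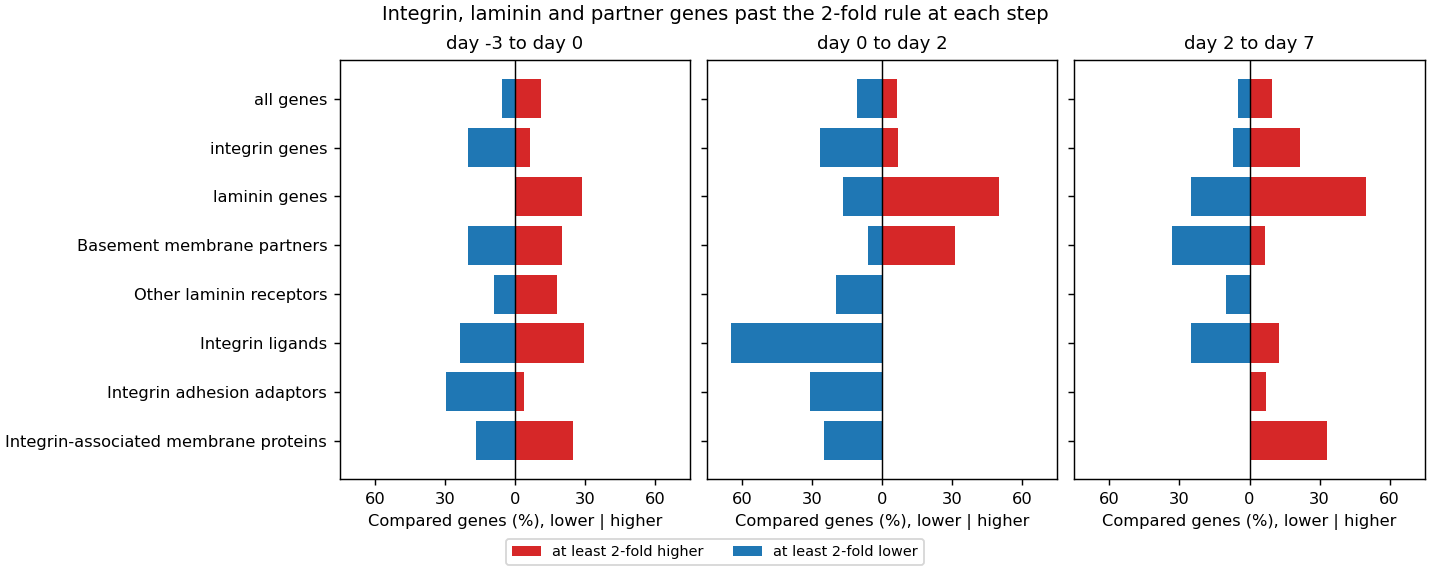
Share of compared genes at least 2-fold higher (red, to the right) and lower (blue, to the left) on the log2(FPKM + 1) scale at each consecutive step, for all genes, the integrin and laminin genes and the partner lists. At day 0 to day 2, 11 of 17 integrin ligands are lower (all genes 10.7%) and 3 of 6 laminin genes higher (all genes 6.18%).

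In brown adipose tissue the values are RPKM, reads scaled by length and depth, made separately from the culture values, so ranks within each library were compared over the 10467 genes with a value in both and at least 1 in either. Of 20 members so ranked, 1 stood at least 20 percentage points higher in the tissue than at day 7 and 7 lower, where 14.5% of all genes ranked higher and 14.4% lower (28.9% in either direction). The median rank difference of the 20 was -9.66 points, and of the 8 laminin genes -16.5. Fewer cells of a type and less RNA per cell cannot be told apart in such bulk samples. The tissue also held RNA of other cells: 8 of 8 endothelial markers lay between 1.72 and 51.4 RPKM, summing to 168, 6 of 6 pericyte and smooth muscle markers between 4.65 and 91.5 RPKM, summing to 194, and 6 of 6 skeletal muscle markers summed to 1252 RPKM. Of the leukocyte markers 9 had tissue values, from 0 for Cd3e to 19.6 RPKM, and 3 of 4 epithelial markers were at 0. The part of these cells in the values below was not tested.

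Itga1 was the member ranked higher in the tissue, at 9.84 RPKM and percentile 70.1, against 7.43 FPKM and percentile 29.1 at day 7. It was the most abundant alpha subunit of the tissue, followed by Itga7 at 8.09 RPKM, Itga6 at 6.89 and Itgav at 4.90. Itga5, which led in proliferating cells, was at 1.41 RPKM, with a rank difference of -48.1 points from day 7. The rank difference was -31.9 points for Itga6 and -23.6 for Itga2b, which was at 0.326 RPKM. Itgb1 was again the leading beta subunit, at 38.2 RPKM and 77.9% of the 8 beta genes, before Itgb5 at 8.22 RPKM.

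Lama4 was the main laminin alpha chain in the tissue as in the day 7 culture, at 10.7 RPKM and 77.6% of the alpha sum. Its rank difference from day 7 was -20.7 points, close to the limit of 20, and Itgav, at -18.4 points, lay just inside it. The rank difference was -52.1 points for Lama5, at 1.87 RPKM, -22.5 for Lamc1, at 11.9 RPKM, and -27.7 for Lamb3, at 0.231 RPKM. Lamb1 was at 18.5 RPKM and Lamb2 at 9.47, so that Lamb2 made up 33.6% of the beta sum, against 22.5% at day 7. Lama2 was at 1.04 RPKM. Laminin-421 had its scarcest chain at 9.47 RPKM and laminin-411 at 10.7, while laminin-511 and laminin-521 were limited by Lama5. A count of 3 reads on 1 kb of transcript were worth an estimated 0.561 RPKM in this library, less on longer transcripts.

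**Figure D5:**
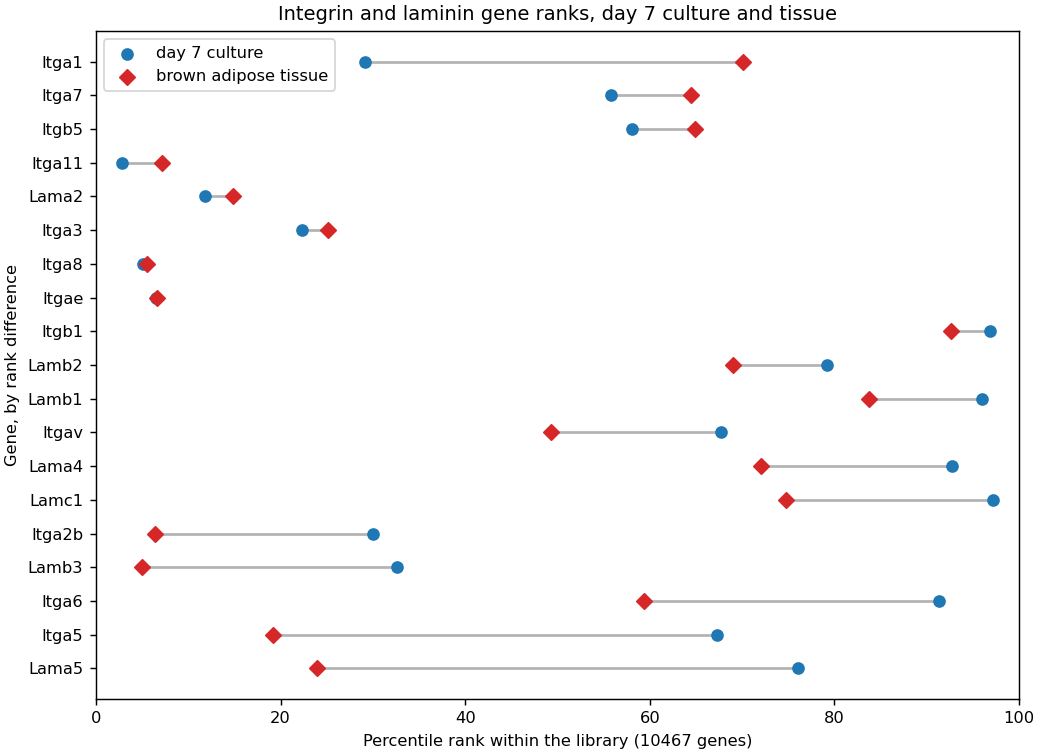
Percentile rank of members within the day 7 culture library (circles) and the brown adipose tissue library (diamonds), over 10467 genes, ordered by the rank difference. Itga1 is 40.9 points higher in the tissue, and Lama5 and Itga5 have differences of -52.1 and -48.1 points.

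Another 13 members have a tissue value but none in culture, and 2 of them were at 1 RPKM or more: Lamc3, an alternative gamma chain, at 1.73 and Itga4, a VCAM-1 receptor subunit of leukocytes, at 1.16. The genes Itgad, Itgax, Itgb8 and Lama1 were listed at 0, and the other 7 lay between 0.133 RPKM (Itga2) and 0.802 (Itgb6). Itgb2, the common beta subunit of leukocyte integrins, was at 0.653 RPKM, and Itgb4, the beta subunit that joins alpha6 in epithelia, at 0.577. Lama3 was at 0.181 RPKM. Itga10 has no tissue value. The members below 1 in both libraries were Itga9, at 0.686 RPKM, Itgam, at 0.360, and Itgb3, at 0.194.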

How the data were processed

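The authors deposited FPKM per gene symbol for the 4 culture libraries and RPKM per RefSeq transcript for the tissue. Per the submitters' processing notes, the build was mm9; the notes name TopHat2 2.0.10, Cufflinks 1.0.3, SICER and CASAVA 1.8.2 for the culture samples and CASAVA alone for the tissue, with no role given for each. Each gene of the culture tables exceeds 1 FPKM in some library (smallest maximum 1.00125), so members enter through the day where they are high. Why a gene has no value is not stated, so such a gene was not taken as low. The other 78 of 83 samples were not used here. Depth of the culture libraries is unknown. In the tissue, 1 read on 1 kb was worth an estimated 0.187 RPKM: 34 of 44 chemosensory receptor transcripts were whole multiples of it within 0.01 when gene spans of GRCm38.p6 served as lengths. This covers counting error only.

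Of 29082 tissue transcripts 28436 (97.8%) matched 1 symbol in that RefSeq table, and a gene took its highest transcript. Differences were of log2(FPKM + 1), a scale that understates differences of low genes. Values were computed with Python 3.11.15, pandas 2.3.3 and numpy 2.4.6 and drawn with matplotlib 3.10.9. Members passing the rule and the most abundant are named with all values, the others by range, and up to 4 partner genes per list by largest range. Members, lists, chain combinations and motifs were chosen with earlier results of these data known. Alternatives covered the pseudocount, scaling, the filter, the fold and the tissue summary. The values of 1 member are not reported here, although it stays in the counts and medians.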

Additional observations from a re-analysis of the deposited data

How the results depend on the processing

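No paired analysis was possible because each group has 1 library, and leaving a library out would leave no comparison. With a pseudocount of 0.1, 6 members were higher at the first step and 9 lower at the second. The shares of all genes were then 16.2% and 14.1%. With a pseudocount of 5, 0 were higher at the first, 3 lower at the second, 4 higher and 1 lower at the third, and 3 higher from day -3 to day 7. In the same order the shares of all genes were 4.11%, 4.96%, 4.97%, 2.63% and 11.5%. With a common total the counts were 9 higher at the first step, 8 lower at the second and 10 higher from end to end. The matching shares of all genes were 19.4%, 13.1% and 25.8%. Requiring 5 FPKM left 1 higher at the first step, where 10.2% of all genes were higher. A 1.5-fold rule gave 9 higher and 5 lower at the first, 11 lower at the second, 11 higher and 5 lower at the third, and 11 higher from end to end. The shares of all genes under this rule were, in the same order, 23.4%, 14.6%, 21.0%, 19.2%, 13.8% and 31.8%. The other counts stayed within 1.5 times, and 24 of 24 medians within 1.5-fold. Of 37 single differences past the rule, 17 were under it with a pseudocount of 5, which lowers differences of low genes by construction, 1 (Itgav) with the common total, and 0 changed sign. Depth limits the members under 1 FPKM, whose read numbers are unknown.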

Other observations

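In the tissue, integrin ligands other than laminin were lower in rank for most members: 0 of 16 ranked at least 20 points higher than at day 7 and 10 lower, with a median rank difference of -29.0 points. Of all genes 14.5% ranked higher and 14.4% lower, and the lower count of the adhesion adaptors below is near that share. Spp1 was at 19.5 FPKM at day 7 and 0.132 RPKM in the tissue, Fn1 at 299 and 2.70, and Thbs1 at 82.0 and 0.483. Basement membrane partners were at 2 of 15 higher and 7 lower. Among the higher was Smoc1, a matricellular protein of basement membranes, at 5.94 FPKM and 24.9 RPKM, a rank difference of 64.2 points. Among the lower was Fbln1, at 38.0 FPKM and 0.724 RPKM, with -68.8 points. Of 11 laminin receptors that are not integrins 5 ranked higher and 2 lower, among them Bcam, a receptor for laminin alpha5, at 0.986 FPKM and 6.37 RPKM. Adhesion adaptors were at 2 of 27 higher and 4 lower. Lims2, an integrin-linked kinase partner known from muscle, was among the higher, at 2.06 FPKM and 25.7 RPKM (80.5 points). Actn1 was among the lower, at 37.7 FPKM and 2.60 RPKM (-48.6 points). These genes were chosen after their values were seen, and the tissue held skeletal muscle markers summing to 1252 RPKM, whose part was not tested.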
